A study of Mus musculus with 8 samples.

Results

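The 32 genes described here are the enzymes of glycolysis and other genes of the hypoxia response, a module named by gene symbol and not chosen by a cut on any value. These 32 genes include 30 of the 18194 genes that had a probe set with a single symbol. They fall into 16 glycolytic enzymes (Hk1, Hk2, Gpi1, Pfkl, Pfkm, Pfkp, Aldoa, Aldoc, Tpi1, Gapdh, Pgk1, Pgam1, Eno1, Eno2, Pkm and Ldha) and 16 other hypoxia response genes (Slc2a1, Slc2a3, Slc16a3, Pdk1, Hif1a, Egln1, Egln3, P4ha1, P4ha2, Bnip3, Vegfa, Ndrg1, Ankrd37, Ddit4, Higd1a and Mxi1). RNA came from mouse embryonic stem cells and was read on 8 Affymetrix arrays, 2 biological replicates for each of 4 genotypes. Wild-type cells (WT) carried both alleles of Jmjd1a and Jmjd1b, Jmjd1a-KO cells lacked Jmjd1a, Jmjd1b-KO cells lacked Jmjd1b, and double-KO cells lacked both of these histone H3K9 demethylases, now named Kdm3a and Kdm3b. All cells were grown with leukemia inhibitory factor, and OHT at 800 nM stands in the protocol given for each of the 8 samples. This agent deletes a conditional Jmjd1b allele through the inducible MerCreMer recombinase. No sample is labelled as a control for OHT.

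The groups have limits as models. Double-KO cells were made by introducing conditional Jmjd1b alleles into a line already deficient in Jmjd1a, and the labels describe WT and Jmjd1b-KO cells as derived from mice while the design names targeted lines. The labels do not tie a replicate to a line, so the spread between 2 arrays may be that of 2 lines, of 2 cultures or technical, and a genotype cannot be told apart from the line that carries it. Kdm3a averaged 12.78 on the log2 scale in WT and 12.81 in Jmjd1b-KO against 4.98 and 4.68 in the groups without it, Jmjd1a-KO and double-KO. Kdm3b averaged 9.93 in WT and 9.88 in Jmjd1a-KO against 7.08 in Jmjd1b-KO and 7.36 in double-KO, so both followed the labels. All 10 listed pluripotency markers were measured, and their summed level lay between 15.4 and 15.9 on every array. Single ones moved in unlike directions: Zfp42 and Sox2 rose against WT in Jmjd1a-KO (1.01 and 0.58) and in double-KO (1.33 and 0.67), Nanog (1.34) and Tdgf1 (0.65) rose in double-KO, and Esrrb was lower there than in Jmjd1a-KO by -2.52 (adjusted p = 0.0226) and read -1.11 against WT (adjusted p = 0.153). Of 18 fibroblast markers 11 were measured, with a summed level on the log2 scale of 13.6 to 13.8 in WT, 12.5 in Jmjd1a-KO, 12.0 to 12.1 in Jmjd1b-KO and 12.6 to 13.1 in double-KO. Of their 17 probe sets 12 fell and 0 rose in Jmjd1a-KO against WT (7.88% and 10.1% of all measured probe sets). In Jmjd1b-KO 12 fell and 1, of Thy1, rose (11.6% and 12.3%), and in double-KO 11 fell and 0 rose (19.6% and 27%). Acta2, Tagln, Col3a1 and Fstl1 did not pass in double-KO (adjusted p = 0.0882, 0.332, 0.458 and 0.672). Of 6 neuroectoderm markers 5 were measured, with sums of 11.9 and 12.0 in WT, 10.5 and 11.8 in Jmjd1a-KO, 10.2 and 10.1 in Jmjd1b-KO and 10.4 and 10.1 in double-KO. Only Dab2, Gata6 and Sox17 of 8 endoderm markers and Eomes of 6 mesoderm markers were measured, and Zic1 and Foxa2 were among those with no measured difference. Eomes rose in each group without a demethylase, by 0.83 on loss of Jmjd1a, 0.65 on loss of Jmjd1b and 1.16 on loss of both (adjusted p = 0.0173, 0.0274 and 0.00189). Sox17 (1.07) and Gata6 (0.48) rose in double-KO, and Dab2 fell by 0.88 in Jmjd1b-KO. The summed endoderm markers read 8.15 and 8.27 in WT, 8.50 and 8.44 in Jmjd1a-KO, 7.83 and 7.88 in Jmjd1b-KO, and 9.00 and 8.59 in double-KO. Each comparison of a KO group with WT below carries these shifts in marker levels, and their part in the results was not tested.

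Glycolysis splits glucose into pyruvate, which lactate dehydrogenase can reduce to lactate, and embryonic stem cells are known for a high rate of it. In low oxygen the factor HIF-1, whose regulated subunit is encoded by Hif1a, binds short DNA elements and raises transcription of glucose transporters, most glycolytic enzymes and many other genes. In normal oxygen the prolyl hydroxylases encoded by Egln1 and Egln3 mark the HIF subunit for destruction, and both genes are themselves HIF targets, as is Kdm3a.

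The core letters that HIF-1 is known to recognise, ACGTG or GCGTG, were searched on both strands of the RefSeq promoter windows of 300 bases (GRCm38.p6), of which 30 of the 32 genes had at least 1. Ndrg1 and Slc2a3 had none in that table. At least 1 of these words stood in a window of 27 of the 30 genes (90%), beside 46.7% of all 27025 genes of the promoter table and 69.2% of the 5824 genes that had both a window and a measured probe set. ACGTG alone stood in windows of 76.7% of the 30 genes, beside 21.8% of all genes and 30.6% of those with a measured probe set. The E-box CACGTG, which contains ACGTG, was present for 13.3% of the 30 genes, 8.09% of all genes and 12.6% of those with a measured probe set. A match of 5 letters is a description of the sequence and says nothing about binding. The 250 bases before the start site are shown for 5 genes with unlike patterns over the groups, P4ha2 and Egln1 (highest in double-KO), Egln3 and Pfkp (highest in Jmjd1b-KO) and Hk2 (lowest in double-KO), read 5′ to 3′ on the gene's strand, with both words and their reverse complements in capitals.
P4ha2, chr11:54100674-54100923, plus strand: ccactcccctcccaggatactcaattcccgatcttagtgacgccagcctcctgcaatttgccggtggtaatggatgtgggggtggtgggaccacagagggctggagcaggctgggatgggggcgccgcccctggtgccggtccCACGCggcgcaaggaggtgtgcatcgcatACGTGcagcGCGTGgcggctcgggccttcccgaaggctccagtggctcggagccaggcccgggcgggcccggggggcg
Egln1, chr8:124949255-124949504, minus strand: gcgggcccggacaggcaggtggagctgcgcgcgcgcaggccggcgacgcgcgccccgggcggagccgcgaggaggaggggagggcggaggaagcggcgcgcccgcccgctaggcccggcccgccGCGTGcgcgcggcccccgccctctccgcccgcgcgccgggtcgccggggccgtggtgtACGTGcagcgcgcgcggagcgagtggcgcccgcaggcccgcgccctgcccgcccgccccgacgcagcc
Egln3, chr12:54203875-54204124, minus strand: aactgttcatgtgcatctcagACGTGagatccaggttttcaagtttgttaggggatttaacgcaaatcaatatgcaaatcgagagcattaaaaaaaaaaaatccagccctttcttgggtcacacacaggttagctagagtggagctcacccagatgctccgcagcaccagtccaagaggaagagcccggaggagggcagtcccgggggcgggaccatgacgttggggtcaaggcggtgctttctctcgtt
Pfkp, chr13:6648772-6649021, minus strand: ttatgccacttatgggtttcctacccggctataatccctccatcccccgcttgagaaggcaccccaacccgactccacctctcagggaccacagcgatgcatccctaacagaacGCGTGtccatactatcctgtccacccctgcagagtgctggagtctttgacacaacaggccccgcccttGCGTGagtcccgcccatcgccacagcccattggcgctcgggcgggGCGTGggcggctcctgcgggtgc
Hk2, chr6:82774455-82774704, minus strand: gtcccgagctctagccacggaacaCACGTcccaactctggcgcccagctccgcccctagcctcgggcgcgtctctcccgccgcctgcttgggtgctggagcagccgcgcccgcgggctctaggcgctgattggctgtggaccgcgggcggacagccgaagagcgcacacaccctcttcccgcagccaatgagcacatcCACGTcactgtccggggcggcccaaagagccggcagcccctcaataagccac
Such words stood before genes with opposite patterns. The sequence of Hk2 has ACGTG on 2 occasions, both on the opposite strand, and that of Pfkp has GCGTG on 3.

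The 32 genes were covered by 68 single-symbol probe sets. Of these, 12 spanned less than 0.01 over the 8 arrays, which is taken as not measured, and these include every probe set of Hk1, Pfkm, Pgam1 and Vegfa. The rest of the 12 belong to Aldoc, Pfkl, Hif1a, Higd1a and Mxi1, which had other probe sets that were measured. Gpi1 and Eno1 had no single-symbol probe set. The 3 probe sets of Gapdh, which encodes the glyceraldehyde-phosphate dehydrogenase often used as a reference, are controls of the platform and stayed out of the fit. They lay between 13.8 and 14.0 on every array. This leaves 53 measured probe sets of 25 genes, 21 of 10 glycolytic enzymes and 32 of 15 other genes. The widest span among the members set aside was 1.5e-07 (Pgam1) and the narrowest among those kept was 0.15 (Pdk1), so no member lay near the limit. Of the 53, 14 carry the suffix of probes that can match similar sequences as well (Aldoa, Pgk1, Tpi1, Higd1a, Ndrg1 and Slc2a3), and their levels may include other transcripts. Where a gene had several measured probe sets, its leading one is that with the highest mean over the 8 arrays. Values are log2 levels, on which a difference of 1 is one doubling, and differences are given with their standard error from limma over 2 arrays per group. A change was called at a Benjamini-Hochberg adjusted p under 0.05 over all 11472 measured probe sets.

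Most of the module stood higher in the cells lacking a demethylase than in WT, with 1 array as the exception. Relative to the WT mean, the median of the 53 probe sets was 0.50 and 0.52 on the Jmjd1b-KO arrays and 0.38 and 0.57 on the double-KO arrays. It was 0.71 on Jmjd1a-KO replicate 1 and 0.08 on Jmjd1a-KO replicate 2, which was thus close to WT. The same medians over all 11472 measured probe sets stayed between -0.01 and 0.02. The heat map of leading probe sets by array shows this split within Jmjd1a-KO for most genes, with Slc2a1 and Hif1a reversed and with Slc2a3 and P4ha2 still 0.68 and 0.39 above WT on replicate 2.

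**Figure D1:**
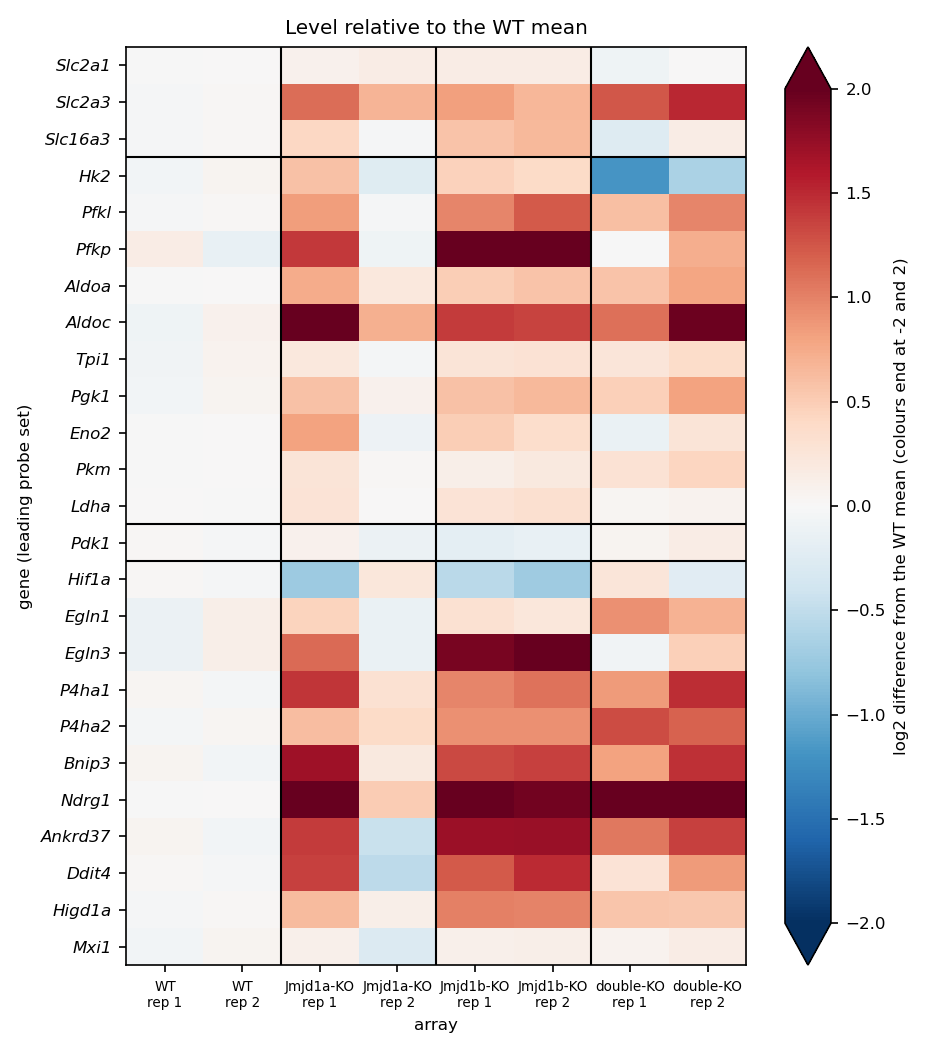
Heat map of the leading probe set of each of the 25 measured genes (rows, in order of role: transporters, glycolytic enzymes, Pdk1, then regulators and other targets) on the 8 arrays (columns, 2 per genotype), coloured by the log2 difference from the mean of the 2 WT arrays. For most genes Jmjd1a-KO replicate 1 resembles the Jmjd1b-KO arrays and replicate 2 the WT arrays, and Hk2 is the gene with the deepest blue, on the double-KO arrays.

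The replicates of Jmjd1a-KO differed over the module as a whole. Replicate 1 was the higher one for 47 of 53 probe sets (88.7%, against 44% of all measured probe sets), among them all 21 of glycolytic enzymes, with a median difference of 0.52 against -0.03 over all probe sets. The summed neuroectoderm markers moved the other way, at 10.5 on replicate 1 and 11.8 on replicate 2, and their part was not tested. In double-KO replicate 1 was the lower one for most members: it was higher for 8 of 53 (15.1%, against 51.3% of all), for 0 of 21 glycolytic probe sets, with a median difference of -0.22. In Jmjd1b-KO replicate 1 was higher for 25 of 53 and in WT for 20 of 53, with medians of -0.01 in both groups. One estimate of error over the 4 groups therefore took in the wide spread of Jmjd1a-KO, and this bears on every call below.

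**Figure D2:**
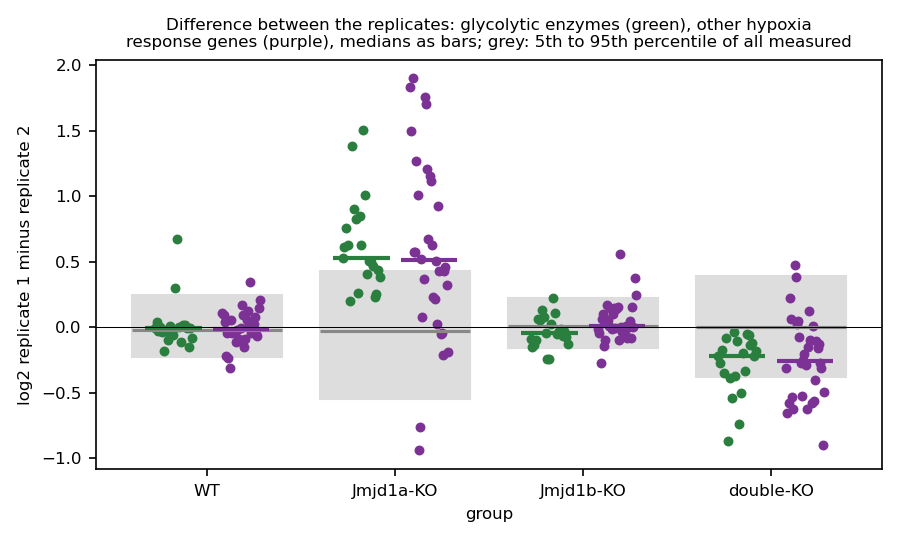
Difference between the 2 replicates of each genotype (log2, replicate 1 minus replicate 2) for each measured probe set of glycolytic enzymes (green points) and other hypoxia response genes (purple points), with medians as bars and the 5th to 95th percentile of all measured probe sets in grey. Nearly all points lie above 0 in Jmjd1a-KO and most lie below 0 in double-KO, while WT and Jmjd1b-KO points scatter around 0.

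The comparison of Jmjd1a-KO with WT asks what loss of Jmjd1a does while Jmjd1b remains. The glucose transporter gene Slc2a3 rose on 2 probe sets and the collagen prolyl hydroxylase gene P4ha2 on its only one, and 0 of the 53 probe sets fell. These 3 of 53 stand beside 10.1% of all measured probe sets called higher and 7.88% called lower. For the 21 glycolytic probe sets the median difference was 0.34 and 0 were called, with 5 at an unadjusted p under 0.05 (36.6% of all measured probe sets). For the 32 others it was 0.40, against 0.00 over all measured probe sets. Both Jmjd1a-KO arrays were above both WT arrays for 29 of 53 probe sets (34.1% of all) and below them for 0 (30.8%), and the groups overlapped for the remaining 24. The count rested on single arrays: it was 30 without Jmjd1a-KO replicate 2 (32.1% of all called in either direction), 3 without replicate 1 (9.19%), 0 without either WT array (2.53% and 1.62%), 1 without either Jmjd1b-KO array (7.46%) and 5 without either double-KO array (18.3%). With only the 4 arrays of these groups it was 0 (3.53% of all).

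Loss of Jmjd1b alone went with higher levels of most of the module. Against WT 14 of 53 probe sets rose, of Pfkl, Pfkp, Slc2a1, Slc2a3, Egln3, Higd1a, Ndrg1 and P4ha2, and 0 fell, beside 12.3% of all measured probe sets called higher and 11.6% called lower. Of glycolytic probe sets 3 of 21 rose, with a median difference of 0.42, and of the others 11 of 32, with a median of 0.73, against 0.00 over all. Both Jmjd1b-KO arrays lay above both WT arrays for 45 of 53 probe sets (39.5% of all) and below them for 6 (37.9%). The 6 were those of Hif1a and Pdk1. The count changed with 1 array left out: it was 0 without WT replicate 1 (1.27% of all called) or Jmjd1b-KO replicate 2 (0.924%), 1 without WT replicate 2 (5.62%) or Jmjd1b-KO replicate 1 (2.05%), 10 without either double-KO array (24.9%) and 36 without either Jmjd1a-KO array (33.2%). With an error taken from WT and Jmjd1b-KO alone, 39 probe sets were higher and 4 lower, 81.1% of the 53 against 44.2% of all measured probe sets.

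In double-KO against WT 23 of 53 probe sets rose, beside 27% of all measured probe sets, and 2 fell, beside 19.6%. In either direction this is 47.2% of the 53 and 46.6% of all, so the share called was near the background. The 9 glycolytic probe sets that rose belong to Aldoa, Aldoc, Tpi1, Pgk1 and Pkm, and the 14 others to Slc2a3, Egln1, P4ha1, P4ha2, Ndrg1 and Higd1a. The 2 that fell were the probe set of Hk2 and the dimmer of the 2 of Higd1a. The median difference was 0.39 over glycolytic probe sets and 0.67 over the others, against 0.02 over all. Both double-KO arrays were above both WT arrays for 37 of 53 (42% of all) and below them for 2 (36.4%). The count was 11 without either WT array (28.1% and 28.6% of all called), 34 without either Jmjd1a-KO array (53%), 16 without either Jmjd1b-KO array (38.1%), 16 without double-KO replicate 1 (36.2%) and 13 without replicate 2 (35.9%). Within the 4 arrays of these groups 29 were higher and 1 lower, 56.6% against 43.5% of all.

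**Figure D3:**
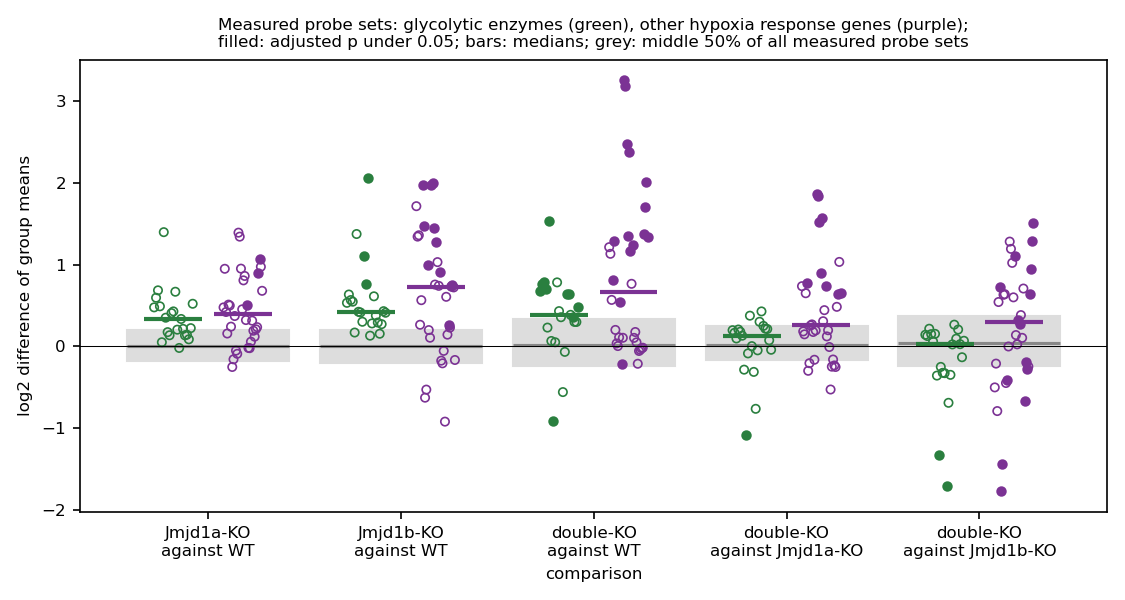
Log2 difference of group means for each measured probe set of glycolytic enzymes (green) and other hypoxia response genes (purple) in 5 comparisons, with filled points for an adjusted p under 0.05, bars for the medians and the middle 50% of all measured probe sets in grey. The purple medians lie above the green ones, and Ndrg1 reaches 3.26 in double-KO against WT.

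The first step into the pathway is glucose uptake, through the transporters GLUT3, encoded by Slc2a3, and GLUT1, encoded by Slc2a1. Slc2a3 on its leading probe set read 12.52 and 12.57 in WT, 13.65 and 13.22 in Jmjd1a-KO, 13.36 and 13.21 in Jmjd1b-KO, and 13.79 and 14.06 in double-KO. Every array lacking a demethylase was above both WT arrays, and both double-KO arrays were above all others. The differences from WT were 0.90 ± 0.16 in Jmjd1a-KO (adjusted p = 0.0206), 0.74 ± 0.16 in Jmjd1b-KO (adjusted p = 0.0281) and 1.38 ± 0.16 with both genes lost (adjusted p = 0.00171). All 4 probe sets of Slc2a3 rose in double-KO against WT and all 4 against Jmjd1b-KO, by 0.64 on the leading one (adjusted p = 0.0202). The dimmest one also separated the single deletions, being lower in Jmjd1b-KO than in Jmjd1a-KO by -0.85 (adjusted p = 0.0224). It did not rise in Jmjd1b-KO, with 6.81 and 6.56 there against 6.95 and 6.75 in WT. On the leading probe set the call of double-KO against WT held without each array in turn (highest adjusted p = 0.0158). With only the groups compared that of Jmjd1a-KO against WT did not pass (adjusted p = 0.0762). The calls of both single deletions against WT were lost without either WT array or either Jmjd1b-KO array (adjusted p up to 0.104 for Jmjd1a-KO and 0.146 for Jmjd1b-KO), and that against Jmjd1b-KO without either Jmjd1b-KO array or double-KO replicate 2 (up to 0.108).

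Slc2a1 moved over a small range and in another order. Its leading probe set read 13.33 and 13.34 in WT, 13.43 and 13.48 in Jmjd1a-KO, 13.48 and 13.48 in Jmjd1b-KO, and 13.24 and 13.35 in double-KO. Both single deletions lay above WT without overlap, and the double-KO arrays overlapped WT. Against Jmjd1b-KO it was lower in double-KO by -0.19 ± 0.06 (adjusted p = 0.0403), a call lost without either WT array, either Jmjd1b-KO array or double-KO replicate 1 (up to 0.162) and with only the groups compared (0.0739). A second probe set rose in Jmjd1b-KO against WT by 0.26 (adjusted p = 0.0442) and fell by 0.28 in double-KO against Jmjd1b-KO (adjusted p = 0.0178). Slc16a3 encodes MCT4, which exports lactate. It read 8.62 and 8.66 in WT, 9.04 and 8.62 in Jmjd1a-KO, 9.21 and 9.29 in Jmjd1b-KO, and 8.38 and 8.78 in double-KO. Only the Jmjd1b-KO arrays were both above both WT arrays. The one call was its fall by 0.66 ± 0.18 in double-KO against Jmjd1b-KO (adjusted p = 0.0254), lost without either Jmjd1b-KO array or double-KO replicate 1 (up to 0.116).

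Hexokinase 2, encoded by Hk2, traps glucose in the cell as glucose 6-phosphate, and of the 10 measured enzymes of the list it was the one with a call toward lower levels against WT. It read 11.47 and 11.57 in WT, 12.11 and 11.28 in Jmjd1a-KO, 11.97 and 11.90 in Jmjd1b-KO, and 10.34 and 10.88 in double-KO. Both double-KO arrays were below all 6 others. It fell by 0.91 ± 0.29 against WT (adjusted p = 0.0475), by 1.08 against Jmjd1a-KO (adjusted p = 0.0407) and by 1.32 against Jmjd1b-KO (adjusted p = 0.0129). With only the groups compared the second did not pass (adjusted p = 0.154). These calls were lost without double-KO replicate 1 or either Jmjd1b-KO array, the first also without either WT array, and the second also without either WT array or Jmjd1a-KO replicate 1 (adjusted p up to 0.192, 0.163 and 0.066).

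Phosphofructokinase commits glucose to glycolysis, and its platelet and liver isoforms, Pfkp and Pfkl, rose in Jmjd1b-KO. Pfkp on its leading probe set read 10.00 and 9.70 in WT, 11.27 and 9.77 in Jmjd1a-KO, 11.92 and 11.90 in Jmjd1b-KO, and 9.84 and 10.57 in double-KO. The Jmjd1b-KO arrays were above all others, and the double-KO and Jmjd1a-KO arrays overlapped WT. It rose by 2.06 ± 0.50 in Jmjd1b-KO against WT (adjusted p = 0.0349) and fell by 1.70 in double-KO against Jmjd1b-KO (adjusted p = 0.0323). Both calls were lost without either WT array or either Jmjd1b-KO array, and the second also without double-KO replicate 1 (up to 0.15 and 0.145). The 2 dimmer probe sets of Pfkp had no call in any comparison. Pfkl read 9.32 and 9.36 in WT, 10.17 and 9.32 in Jmjd1a-KO, 10.33 and 10.57 in Jmjd1b-KO, and 9.94 and 10.31 in double-KO, and rose in Jmjd1b-KO by 1.11 ± 0.28 (adjusted p = 0.0405). In double-KO both arrays were again above WT, by 0.78, but below the threshold (adjusted p = 0.0665). The Jmjd1b-KO call was lost on leaving out any array of WT, Jmjd1b-KO or double-KO (up to 0.184).

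Aldolase cleaves the phosphorylated hexose, and both measured aldolase genes rose in double-KO. The brain-type gene Aldoc read 9.37 and 9.55 in WT, 11.55 and 10.17 in Jmjd1a-KO, 10.87 and 10.81 in Jmjd1b-KO, and 10.56 and 11.43 in double-KO. All 6 arrays lacking a demethylase were above WT. Its rise in double-KO was 1.53 ± 0.48 (adjusted p = 0.0437), and the differences of 1.40 in Jmjd1a-KO and 1.38 in Jmjd1b-KO did not pass (adjusted p = 0.0947 and 0.0867). The muscle-type gene Aldoa, among the brightest members, read 12.93 and 12.94 in WT, 13.68 and 13.15 in Jmjd1a-KO, 13.43 and 13.51 in Jmjd1b-KO, and 13.50 and 13.72 in double-KO. Again no array lacking a demethylase overlapped WT on the leading probe set. On the dimmest one Jmjd1a-KO replicate 2 (10.715) was below both WT arrays (10.75 and 10.78). The leading probe set of Aldoa rose in double-KO by 0.68 ± 0.18 (adjusted p = 0.0238), as did 3 of its other 4 probe sets, by 0.70 to 0.78. Both aldolase calls were lost without either WT array or double-KO replicate 2, and that of Aldoc also without either Jmjd1b-KO array (up to 0.105 for Aldoa and 0.184 for Aldoc).

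The later enzymes shifted by smaller amounts. Phosphoglycerate kinase, encoded by Pgk1, makes the first ATP of the pathway. It read 13.02 and 13.14 in WT, 13.67 and 13.17 in Jmjd1a-KO, 13.67 and 13.72 in Jmjd1b-KO, and 13.55 and 13.89 in double-KO, and rose in double-KO by 0.64 ± 0.19 (adjusted p = 0.0342). A second of its 3 probe sets rose by 0.64 as well (adjusted p = 0.018). On the leading probe set all arrays lacking a demethylase were above WT, Jmjd1a-KO replicate 2 by the least. On its other probe sets that array was below both WT arrays (12.83 against 12.87 and 12.85, and 10.45 against 10.56 and 10.54). Pyruvate kinase, encoded by Pkm, makes pyruvate. It read 12.49 and 12.50 in WT, 12.75 and 12.52 in Jmjd1a-KO, 12.61 and 12.68 in Jmjd1b-KO, and 12.79 and 12.92 in double-KO, and rose in double-KO by 0.36 ± 0.09 (adjusted p = 0.0233). Both calls were lost without either WT array or double-KO replicate 2, and that of Pgk1 also without either Jmjd1b-KO array (up to 0.147 and 0.102). Of the triosephosphate isomerase gene Tpi1, 1 of 3 probe sets rose in double-KO, by 0.48 (adjusted p = 0.0346), and its leading one did not pass (0.30, adjusted p = 0.061).

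Lactate dehydrogenase A and the neuronal enolase had no call in any of the 7 contrasts. Ldha read 13.50 and 13.49 in WT, 13.76 and 13.50 in Jmjd1a-KO, 13.77 and 13.82 in Jmjd1b-KO, and 13.53 and 13.57 in double-KO. Its double-KO arrays stayed within 0.1 of WT, with a difference of 0.05 ± 0.09, and the Jmjd1b-KO arrays were both higher, by 0.30 (adjusted p = 0.0608). Eno2 read 6.82 and 6.85 in WT, 7.64 and 6.74 in Jmjd1a-KO, 7.33 and 7.19 in Jmjd1b-KO, and 6.71 and 7.10 in double-KO. Only the Jmjd1b-KO arrays were both above WT, and the other groups overlapped it. In the 3 control probe sets of Gapdh the largest difference from WT was 0.15 ± 0.06 in double-KO (adjusted p = 0.1), from a fit with these probe sets added after seeing the data.

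Pdk1 encodes a kinase that inhibits pyruvate dehydrogenase and so keeps pyruvate from the mitochondrial cycle. Its leading probe set read 11.86 and 11.80 in WT, 11.92 and 11.71 in Jmjd1a-KO, 11.64 and 11.68 in Jmjd1b-KO, and 11.89 and 11.99 in double-KO. On this probe set Jmjd1b-KO was thus the lowest group and double-KO the highest, with 0.28 ± 0.09 between them (adjusted p = 0.037). This call was lost on leaving out any array of WT, Jmjd1b-KO or double-KO (up to 0.152). Jmjd1a-KO, Jmjd1b-KO and double-KO differed from WT by -0.02, -0.17 and 0.10, which did not pass (adjusted p = 0.902, 0.18 and 0.356). Jmjd1b-KO was the lowest group on the other Pdk1 probe sets too, but double-KO was not always the highest. The dimmest probe set had its highest mean without Jmjd1a (7.64), above WT (7.32) and double-KO (7.11). Jmjd1b-KO (6.40) was below Jmjd1a-KO there by -1.24 ± 0.33 (adjusted p = 0.0415). On another probe set Jmjd1a-KO (9.790) and double-KO (9.782) were nearly level.

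Hif1a itself had no call in any of the 7 contrasts. Its leading probe set read 11.07 and 11.01 in WT, 10.32 and 11.26 in Jmjd1a-KO, 10.50 and 10.33 in Jmjd1b-KO, and 11.28 and 10.81 in double-KO. The 3 lowest arrays, Jmjd1a-KO replicate 1 and both of Jmjd1b-KO, are also the 3 highest for Pfkp, Ddit4 and Ankrd37, genes picked for this remark after their values were seen. Its difference from WT was -0.63 ± 0.31 in Jmjd1b-KO (adjusted p = 0.191) and 0.00 in double-KO (adjusted p = 0.992). A second measured probe set gave the same order of arrays within Jmjd1a-KO and double-KO, also with no call.

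The 2 HIF prolyl hydroxylase genes rose in different groups. Egln1, which encodes PHD2, read 8.92 and 9.13 in WT, 9.47 and 8.90 in Jmjd1a-KO, 9.32 and 9.26 in Jmjd1b-KO, and 9.95 and 9.72 in double-KO on its leading probe set. Both double-KO arrays were above the other 6. It rose in double-KO against WT by 0.81 ± 0.20 (adjusted p = 0.0192), and its other probe set rose by 1.29 (adjusted p = 0.00274) and was also higher in double-KO than in Jmjd1a-KO (0.78, adjusted p = 0.0246) and Jmjd1b-KO (0.73, adjusted p = 0.0177). Egln3, which encodes PHD3, read 8.82 and 9.05 in WT, 10.07 and 8.80 in Jmjd1a-KO, 10.84 and 10.98 in Jmjd1b-KO, and 8.87 and 9.41 in double-KO. Here the Jmjd1b-KO arrays were above all others, and the double-KO arrays overlapped WT. Its level in Jmjd1b-KO was higher than in WT by 1.97 ± 0.41 (adjusted p = 0.0251) and than in Jmjd1a-KO by 1.47 (adjusted p = 0.0457), and double-KO was below Jmjd1b-KO by -1.77 (adjusted p = 0.0151). The second Egln3 probe set gave 1.47 and -1.44 for the first and last of these (adjusted p = 0.0363 and 0.0196). The Egln1 call on the leading probe set was lost without either WT array or double-KO replicate 1 (up to 0.1). The Egln3 calls were lost without either Jmjd1b-KO array, and also without either WT array against WT (up to 0.128), without double-KO replicate 1 in the comparison with double-KO (up to 0.0783), and on leaving out any array but Jmjd1a-KO replicate 1 in that with Jmjd1a-KO (up to 0.19), which was also lost with only the groups compared (0.113).

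**Figure D4:**
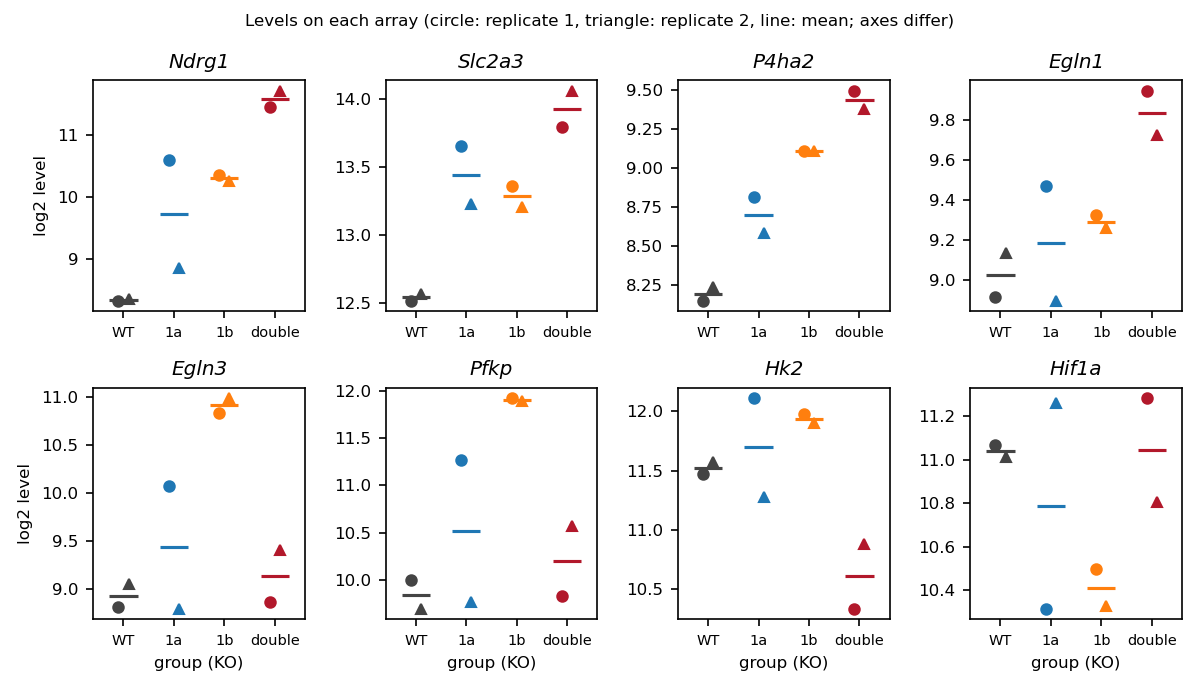
Log2 level of the leading probe set of 8 genes on each array (circle for replicate 1, triangle for replicate 2, line for the group mean), by genotype, with a separate axis for each gene. Ndrg1, Slc2a3, P4ha2 and Egln1 are highest in double-KO, Egln3 and Pfkp in Jmjd1b-KO, Hk2 is lowest in double-KO, and Hif1a is low on Jmjd1a-KO replicate 1 and both Jmjd1b-KO arrays.

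P4ha1 and P4ha2 encode catalytic subunits of the prolyl hydroxylase that modifies collagen. P4ha2 gave the most regular order of the module, with 8.15 and 8.24 in WT, 8.82 and 8.58 in Jmjd1a-KO, 9.11 and 9.11 in Jmjd1b-KO, and 9.49 and 9.37 in double-KO. The 4 groups did not overlap at any step of that order, and all 6 pairwise differences passed in the fit over the 4 groups. It rose against WT by 0.51 ± 0.09 without Jmjd1a (adjusted p = 0.0214), 0.91 without Jmjd1b (adjusted p = 0.00523) and 1.24 without both (adjusted p = 0.000476). Double-KO was above Jmjd1a-KO by 0.74 (adjusted p = 0.00475) and above Jmjd1b-KO by 0.33 (adjusted p = 0.0294), and Jmjd1b-KO above Jmjd1a-KO by 0.41 (adjusted p = 0.0253). The interaction, the effect of losing Jmjd1b in Jmjd1a-deficient cells minus that in cells with Jmjd1a, was -0.18 and did not pass (adjusted p = 0.356). The calls of double-KO against WT and Jmjd1a-KO held without each array in turn (highest adjusted p = 0.00668 and 0.0257). With an error taken from only the groups compared, 3 of the 6 did not pass, double-KO against Jmjd1a-KO (adjusted p = 0.0581), Jmjd1a-KO against WT (0.0881) and Jmjd1b-KO against Jmjd1a-KO (0.0734). Those of Jmjd1a-KO against WT and of double-KO against Jmjd1b-KO were lost without either WT array or either Jmjd1b-KO array, the latter also without double-KO replicate 1 (up to 0.108 and 0.128). That of Jmjd1b-KO against WT was lost without WT replicate 1 or Jmjd1b-KO replicate 2 (up to 0.0543), and that between the single deletions without either Jmjd1b-KO array (up to 0.126). P4ha1 on its leading probe set read 9.00 and 8.91 in WT, 10.38 and 9.26 in Jmjd1a-KO, 9.94 and 10.04 in Jmjd1b-KO, and 9.81 and 10.44 in double-KO, all above WT. On its other probe set Jmjd1a-KO replicate 2 (7.11) lay between the WT arrays (7.03 and 7.18). The leading probe set of P4ha1 rose in double-KO by 1.17 ± 0.38 (adjusted p = 0.0474). This call was lost on leaving out any array of WT, Jmjd1b-KO or double-KO (up to 0.195).

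Ndrg1, a stress-responsive gene widely used as a hypoxia marker, had the largest differences of the module. It read 8.32 and 8.35 in WT, 10.61 and 8.85 in Jmjd1a-KO, 10.36 and 10.26 in Jmjd1b-KO, and 11.46 and 11.73 in double-KO. Every array lacking a demethylase was above WT, and both double-KO arrays above the rest. It rose by 3.26 ± 0.52 in double-KO (adjusted p = 0.00464) and by 1.97 in Jmjd1b-KO (adjusted p = 0.0434), and the 1.39 in Jmjd1a-KO did not pass (adjusted p = 0.114). All 5 probe sets rose in double-KO against WT, by 1.36 to 3.26, and all 5 against Jmjd1a-KO, by 1.86 on the leading one (adjusted p = 0.0444). Against Jmjd1b-KO 1 of 5 passed, at 1.10 (adjusted p = 0.0449), and the leading one read 1.28 (adjusted p = 0.0869). The call against WT in double-KO held without each array (highest adjusted p = 0.0311), and those of Jmjd1b-KO against WT and double-KO against Jmjd1a-KO were lost on leaving out any array of WT, Jmjd1b-KO or double-KO (up to 0.175 and 0.141). With only the groups compared, that against Jmjd1a-KO did not pass (adjusted p = 0.161).

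The mitochondrial genes among the targets behaved unequally. Higd1a, whose product is a small protein of the inner membrane, read 11.51 and 11.55 in WT, 12.16 and 11.64 in Jmjd1a-KO, 12.53 and 12.52 in Jmjd1b-KO, and 12.09 and 12.07 in double-KO. All KO arrays were above WT, the Jmjd1b-KO arrays the most. It rose by 1.00 ± 0.16 in Jmjd1b-KO (adjusted p = 0.0131) and 0.55 in double-KO (adjusted p = 0.0334), and Jmjd1b-KO was above Jmjd1a-KO by 0.62 (adjusted p = 0.0344). A second, dimmer probe set, of the kind that may match similar sequences, fell by 0.21 in double-KO against WT (adjusted p = 0.049), so the 2 disagree in direction there. The calls of the leading one were lost without any array of WT or Jmjd1b-KO, and outside Jmjd1b-KO against WT also without either double-KO array (up to 0.0864, 0.127 and 0.146 in the order given), and the last also with only the groups compared (0.111). Bnip3, a receptor for removal of mitochondria, read 11.29 and 11.19 in WT, 12.94 and 11.44 in Jmjd1a-KO, 12.56 and 12.61 in Jmjd1b-KO, and 12.05 and 12.70 in double-KO. All 6 were above WT, yet none of the differences of 0.95, 1.34 and 1.13 passed (adjusted p = 0.206, 0.0906 and 0.101), with a standard error of 0.48 that the wide gap between its Jmjd1a-KO arrays enters.

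The remaining targets also split the Jmjd1a-KO replicates and had no call. Ankrd37 read 8.87 and 8.77 in WT, 10.22 and 8.38 in Jmjd1a-KO, 10.53 and 10.55 in Jmjd1b-KO, and 9.88 and 10.20 in double-KO. Ddit4, an inhibitor of mTORC1 signalling, read 11.22 and 11.18 in WT, 12.57 and 10.67 in Jmjd1a-KO, 12.43 and 12.70 in Jmjd1b-KO, and 11.48 and 12.06 in double-KO. For both genes Jmjd1a-KO replicate 2 was below WT and every other array without a demethylase above it. Their differences from WT reached 1.72 ± 0.55 and 1.36 ± 0.59 in Jmjd1b-KO (adjusted p = 0.0691 and 0.139). Mxi1, a MAX-binding antagonist of MYC, stayed between 8.79 and 9.20 on all arrays.

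The comparison of double-KO with Jmjd1a-KO asks what loss of Jmjd1b does in cells that already lack Jmjd1a. Against Jmjd1a-KO 9 of 53 probe sets rose in double-KO, of Ndrg1, Slc2a3, Egln1 and P4ha2, beside 17% of all measured probe sets, and 1 fell, that of Hk2, beside 11.9%. All 9 belong to the other hypoxia response genes, and of 21 glycolytic probe sets 0 rose, with 2 at an unadjusted p under 0.05 in either direction (42.3% of all measured probe sets). The median was 0.13 over glycolytic probe sets and 0.26 over the others, against 0.02 over all. The count of calls was 22 and 13 without Jmjd1a-KO replicates 1 and 2 (26.4% and 30% of all), 1 without either WT array (21.6%) or either Jmjd1b-KO array (19.2%), and 3 without double-KO replicate 1 (15.4%) or 2 (22.3%). With only the 4 arrays of these groups it was 0 (4.79% of all). Between the single deletions, 4 probe sets were higher in Jmjd1b-KO (12.7% of all), of Egln3, Higd1a and P4ha2, and 2 lower (15.1%), of Slc2a3 and Pdk1. The total of 6 was 25 without Jmjd1a-KO replicate 1 (25.4% of all), 6 without replicate 2 (30.6%), 0 without Jmjd1b-KO replicate 1 (10.4%) or 2 (7.96%), 2 without either WT array (21.6%) and 3 without either double-KO array (27.9%). With only the 4 arrays of these groups it was 1 (18.5%).

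The comparison of double-KO with Jmjd1b-KO, which asks what loss of Jmjd1a adds to that of Jmjd1b, had calls in both directions. Against Jmjd1b-KO 8 of 53 probe sets rose in double-KO, of Slc2a3, Egln1, P4ha2, Ndrg1 and Pdk1, beside 28.3% of all measured probe sets. Another 8 fell, of Hk2, Pfkp, Egln3, Slc16a3, Slc2a1 and Higd1a, beside 21.8%. Both double-KO arrays were above both Jmjd1b-KO arrays for 22 of 53 (45.8% of all) and below them for 18 (36.2%). Of the 21 glycolytic probe sets 2 fell and 0 rose, with 3 at an unadjusted p under 0.05 in either direction (57.2% of all measured probe sets), and their median was 0.03, against 0.30 for the others and 0.04 for all. The total of 16 calls was 33 without either Jmjd1a-KO array (56.7% of all), 11 without either WT array (44.7%), 4 and 3 without Jmjd1b-KO replicates 1 and 2 (31.5% and 29.2%), and 5 and 12 without double-KO replicates 1 and 2 (36.9% and 42.4%).

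The interaction asks whether the 2 deletions add up on the log2 scale. It was negative with a call for 7 of 53 probe sets (11% of all measured) and positive with a call for 0 (13.9%), with a median of -0.39 over glycolytic probe sets and -0.13 over the others against 0.02 over all. The 7 belong to Egln3 (-2.27 ± 0.58, adjusted p = 0.0386), Hk2 (-1.50 ± 0.42, adjusted p = 0.0476), Higd1a and Slc2a1. In each of them Jmjd1b-KO was above WT and double-KO below Jmjd1b-KO. No call remained without any 1 array of WT or Jmjd1b-KO (7.98% to 10.5% of all called), 11 and 28 were made without Jmjd1a-KO replicates 1 and 2 (23.8% and 34.7%), and 2 and 5 without double-KO replicates 1 and 2 (15.3% and 26.1%).

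Set against each other, the glycolytic enzymes lay below the other hypoxia response genes in most comparisons. The median difference of the glycolytic probe sets minus that of the others against WT was -0.06 for Jmjd1a-KO, -0.31 for Jmjd1b-KO and -0.28 for double-KO. Taken array by array, as deviations from each probe set's mean over the 8 arrays, the glycolytic median minus the other was 0.25 and 0.20 in WT, 0.11 and 0.05 in Jmjd1a-KO, -0.02 and 0.08 in Jmjd1b-KO, and -0.11 and -0.17 in double-KO. On this measure the WT arrays were the highest and the double-KO arrays the lowest, with a pooled standard deviation between replicates of 0.0503. The order depends on how the probe sets are counted and centred. With 1 probe set per gene the difference against WT was -0.43 for Jmjd1b-KO and -0.21 for double-KO, so Jmjd1b-KO was the lower. Relative to the WT mean, Jmjd1a-KO replicate 1 had medians of 0.71 over glycolytic probe sets and 0.69 over the others. This is a description of the lists chosen, without a test.

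The wider pathway was read from lists of further genes. Of 39 measured probe sets of other hypoxia targets, 16 rose and 1 fell in Jmjd1b-KO against WT (12.3% and 11.6% of all), with a median of 0.67. In double-KO against WT 14 rose and 9 fell (27% and 19.6% of all), with a median of 0.09. In double-KO the annexin gene Anxa2 (3.01 ± 0.52), the lysyl hydroxylase gene Plod2 (2.57), Cited2 (2.09), whose product competes with HIF for its coactivators, and Fam162a (1.68) rose. The stress-response gene Nupr1 (-3.30 ± 0.34), the stanniocalcin genes Stc1 (-1.65) and Stc2 (-1.15), and Pfkfb3 (-0.64), which makes the activator of phosphofructokinase, fell. Against Jmjd1b-KO 4 of the 39 were higher in double-KO and 17 lower (28.3% and 21.8% of all), with a median of -0.34. Of 12 listed HIF regulators only 5 were measured, by 8 probe sets. Of these 8, 0 rose and 5 fell in double-KO against WT (27% and 19.6% of all). The 5 belong to Epas1 (-0.69), the gene of HIF-2 alpha, the coactivator gene Crebbp (-0.50) and the ubiquitin ligase gene Siah2 (-0.21).

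Of 17 probe sets of further glycolytic and related genes 2 rose in double-KO against WT, of the phosphoglucomutase gene Pgm1 (2.04 ± 0.32) and of Bsg (1.01), the chaperone of lactate transporters, and 6 fell, among them Eno3 (-1.54), Tigar (-0.78) and Ldhc (-0.59). Of 35 probe sets of pyruvate and citrate cycle enzymes 6 rose and 11 fell, with a median of 0.00. The pyruvate dehydrogenase subunit genes Pdha1 (-0.64 ± 0.09) and Pdhb (-0.39) fell and the kinase gene Pdk4 (1.54 ± 0.39) rose. Of 10 pentose phosphate probe sets 0 rose and 4 fell, among them those of Rpia (-0.60) and Pgd (-0.35). These counts stand beside the 27% of all measured probe sets called higher and 19.6% called lower in that comparison.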

How the data were processed

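The deposited log2 values cover 45101 probe sets on each array, of which 74.5% spanned less than 0.01 over the 8 arrays. The unit was read from the values. R 2.7.2 is the one tool in the submitters' processing notes. How the authors corrected, normalized and summarized the log2 values was not given in the sources used here. Raw scans were not analysed here, so signal over background is unknown, and precision is limited by the number of arrays. Genes were named through the platform's annotation, in which 34958 probe sets have 1 symbol, and 4 probe sets that share a symbol of the module with another gene stayed out. All 30 members with a probe set matched the reference gene table by gene ID.

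Groups came from the labelled genotypes. With limma 3.58.1 (lmFit and eBayes, R 4.3.3), a linear model fitted 4 group means to the 11472 probe sets that were no control and spanned at least 0.01, with 4 residual and 1.89 prior degrees of freedom. It gave the 6 pairwise differences and the interaction, with Benjamini-Hochberg adjustment over all 11472 and a threshold of 0.05. Probe sets without a measured difference were left out because they collapse the prior variance. A separate limma fit of the same form was run on simulated data, for double-KO against WT only. Its simulated spread was equal in all groups, unlike the wide spread of Jmjd1a-KO here. The module, its lists and the tests were chosen with earlier results of these data known, so no p is given over a list. In the main setting the counts and medians of the module took in every measured probe set. Single genes are described mainly by the leading probe set, with others given for some genes only. Of the further lists at most 4 genes each way with the largest change in double-KO against WT are named. Alternatives were flat probe sets kept, 1 probe set or the mean per gene, a span of 0.1, a filter on dim probe sets, quantile normalization, centred arrays, eBayes with trend and robust settings, omission of each array, array weights, a replicate block, an adjusted p under 0.01 and fits restricted to the compared groups. After seeing the data, a fit with the Gapdh controls was added. Figures come from matplotlib 3.10.9 (Python 3.11.15).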

Additional observations from a re-analysis of the deposited data

Results flagged for a closer look

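The effect of losing Jmjd1b differed by a tested interaction between cells that lacked Jmjd1a and cells that had it for 7 probe sets of 4 genes of the module (limma, adjusted p from 0.0193 to 0.0476). These are 13.2% of the 53 probe sets, below the 24.9% of all measured probe sets called for the interaction. The interaction was -2.27 for Egln3 and -1.50 for Hk2. Egln3 was higher by 1.97 on losing Jmjd1b from WT and lower by -0.30 on losing it from Jmjd1a-KO, and Hk2 differed by 0.42 and -1.08. It was -0.82 and -0.36 for the 2 measured probe sets of Higd1a, and -0.30, -0.49 and -0.48 for the 3 of Slc2a1. These calls were lost when an array of WT or Jmjd1b-KO was left out. With 2 arrays in each group, no array could be examined for standing apart within its group.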

How the results depend on the processing

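Of 38 calls on leading probe sets, 0 reversed under any alternative. The number that kept their call was 38 with 1 probe set per gene, trend and robust settings, the dim filter or the added Gapdh controls, 36 with quantile normalization, array weights or a span of 0.1, 32 with centred arrays, 22 with the replicate block, 5 at an adjusted p under 0.01 and 4 with flat probe sets kept. Counts of the 53 probe sets called follow in the order Jmjd1a-KO, Jmjd1b-KO and double-KO against WT, double-KO against Jmjd1a-KO and against Jmjd1b-KO, Jmjd1b-KO against Jmjd1a-KO, and the interaction, and were 3, 14, 25, 10, 16, 6 and 7. Of all measured probe sets 17.9%, 23.9%, 46.6%, 29%, 50.1%, 27.9% and 24.9% were called, in that order. With flat probe sets kept the counts were 0, 1, 5, 1, 2, 0 and 0. The shares over the whole table were then 1.72%, 1.82%, 7.16%, 2.86%, 8.47%, 3.02% and 2.76%. At an adjusted p under 0.01 the counts were 0, 1, 11, 1, 3, 0 and 0. The shares of all were then 2.98%, 4.11%, 26%, 9.91%, 29.8%, 10.5% and 6.63%. With 1 probe set per gene, and so fewer of them, the counts were 2, 7, 11, 3, 8, 3 and 4. The shares of all were then 18.1%, 23.8%, 48.4%, 30%, 51.8%, 27.5% and 26.4%. A span of 0.1 gave 5 for Jmjd1a-KO against WT (19.1% of all tested). Array weights gave 44 for Jmjd1b-KO against WT (48.2% of all measured probe sets, 23.9% without weights), and 5 and 26 for double-KO against Jmjd1a-KO (14.1%, 29% without) and Jmjd1b-KO (55.1%, 50.1% without), and the cause was not tested. With only the groups compared the 6 pairwise counts were 0, 43, 30, 0, 26 and 1. The shares of all were then 3.53%, 44.2%, 43.5%, 4.79%, 51.9% and 18.5%. Leaving out each array in turn gave ranges of 0 to 30, 0 to 36, 11 to 34, 1 to 22, 3 to 33, 0 to 25 and 0 to 28.

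With the replicate block the counts were 3, 4, 17, 5, 13, 3 and 1. The shares of all were then 14.5%, 18.5%, 43.3%, 25%, 47.4%, 25.1% and 20.9%. The labels do not say whether the replicate numbers pair the arrays. The differences of replicate 1 minus replicate 2 correlated between -0.0439 and 0.239 over the 6 pairs of groups, highest for WT with Jmjd1a-KO. Such correlations cannot settle whether arrays were handled in pairs.

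The glycolytic minus other median was, in the same order, -0.06, -0.31, -0.28, -0.13, -0.28, -0.03 and -0.26. With 1 probe set per gene it was -0.43 and -0.21 for Jmjd1b-KO and double-KO against WT, -0.031 and -0.11 for double-KO against either single deletion, and -0.22 between the single deletions. With the mean per gene it was -0.18 and -0.21 for Jmjd1b-KO and double-KO against WT, -0.13 for double-KO against Jmjd1b-KO, -0.26 between the single deletions and -0.12 for the interaction. Leaving out each array gave -0.17 to 0.017, -0.33 to -0.12, -0.33 to -0.24, -0.29 to -0.13, -0.31 to -0.26, -0.03 to 0.02 and -0.37 to -0.21. Signal over background was not available to set limits for dim probe sets.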
